A study of Homo sapiens with 17 samples.

Results

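The TNF-α response of SW480 cells was compared with and without depletion of mutant p53 (mutp53), gene by gene, as 1 contrast over the 8 mRNA-seq libraries of the series. The contrast, called the interaction here, is the change from 0 h to 16 h of TNF-α in depleted cells less the same change in control cells, on log2(normalized reads + 1). A negative value means a lower response in depleted cells, and any difference between the lines that is the same at 0 h and 16 h drops out. Of 26457 genes listed, the 14800 whose mean over the libraries reached 2.5 normalized reads entered. The libraries belong to 4 of the 17 samples of the series. SW480 cells come from a human colon carcinoma and express mutant p53. Control cells carried a stable doxycycline-inducible short hairpin RNA (shRNA) against LacZ, a bacterial gene, and mutp53-depleted cells, called depleted cells below, carried the same kind of construct against p53, so the lines are separate stable populations. Whether each is a single clone is not given in the sources used here. Both lines were grown with puromycin and 1 µg/ml doxycycline, also at 0 h, and received TNF-α at 12.5 ng/ml for 0 or 16 h. Each of the 4 groups had 2 biological replicates, A and B.

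TNF-α binds its receptors at the cell surface and activates NFκB, a family of dimeric transcription factors that are held in the cytoplasm by IκB proteins until those are degraded. NFκB then switches on cytokines, chemokines, adhesion molecules and survival genes, together with the IκB proteins and the deubiquitinating enzymes that turn the signal off again. Over hours, autocrine interferon and other secondary signals add the interferon-stimulated genes and the antigen presentation machinery. Wild-type p53 is a tumor suppressor, whereas many mutants accumulate in tumor cells and act through other transcription factors.

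The libraries held 6108488 to 13809578 reads on genes, and 1 read equals 0.67 to 1.515 normalized reads. The spread between A and B libraries exceeded counting noise in all 4 groups (chi-square per gene 2.07 to 3.93). The epithelial markers EPCAM, KRT8, KRT18 and KRT19 had at least 2367 normalized reads in every library, and CDH1 had 58.7 to 485. Of the fibroblast markers, COL3A1 and DCN were at 0 in every library, LUM reached at most 1.37, COL1A1 had 24.2 to 106 and PDGFRB 4.27 to 69.9 normalized reads. Of the leukocyte markers reported here, PTPRC was at 0 in every library, CD3E reached at most 2.9, CD14 had 4.94 to 34.8 and ITGAM 0 to 27.7, and of the endothelial markers PECAM1 and CDH5 reached at most 1.23 and 5.8 and VWF had 0.97 to 28.8. Their part in the results was not tested. In bulk RNA, fewer cells of a kind and less RNA per cell cannot be told apart.

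TNF-α moved many genes in both lines. In control cells 1648 genes rose (11.1% of those tested) and 2243 fell (15.2%), and in depleted cells 1451 rose (9.8%) and 2506 fell (16.9%), at a limma adjusted p under 0.05. The lines shared 933 genes that rose and 1460 that fell, and across the 14800 genes the responses of the lines, which share no library, had a Pearson r of 0.69 and a Spearman rho of 0.62. The response itself differed between the lines for 424 genes. It was lower in depleted cells for 327 genes (2.21%) and higher for 97 (0.655%), at a limma adjusted p under 0.05, and the median interaction of all genes was -0.03. At an unadjusted limma p under 0.05 the interaction passed for 2005 of the 14800 genes, both directions together, the background for such counts in the lists below. Leaving out a depleted library at 0 h brought the lower count down to 166 (replicate A) or 168 (replicate B), and leaving out replicate B at 16 h to 187. The higher count went to 55 and 49 without replicate A or B of control cells at 0 h, to 40 without replicate B of depleted cells at 0 h and to 62 without their replicate A at 16 h.

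The 424 genes were sorted by what the response did in each line. The most frequent form was a weaker induction, in 198 genes that rose in control cells, of which 102 also rose in depleted cells and 96 did not pass the test there. In these genes the median response was 1.28 on the log2 scale in control cells and 0.36 in depleted cells. In 22 genes a rise in control cells was reversed to a fall in depleted cells, 74 genes fell in depleted cells and did not pass the test in control cells, and 33 fell in both but further after depletion. Among the genes with a higher response, 54 fell less in depleted cells, 9 turned from a fall to a rise, 24 rose in depleted cells without passing the test in control cells, and 10 rose in both but further after depletion. A line in which a gene does not pass the test is not shown to lack the response, and the difference between the lines rests on the interaction.

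**Figure D1:**
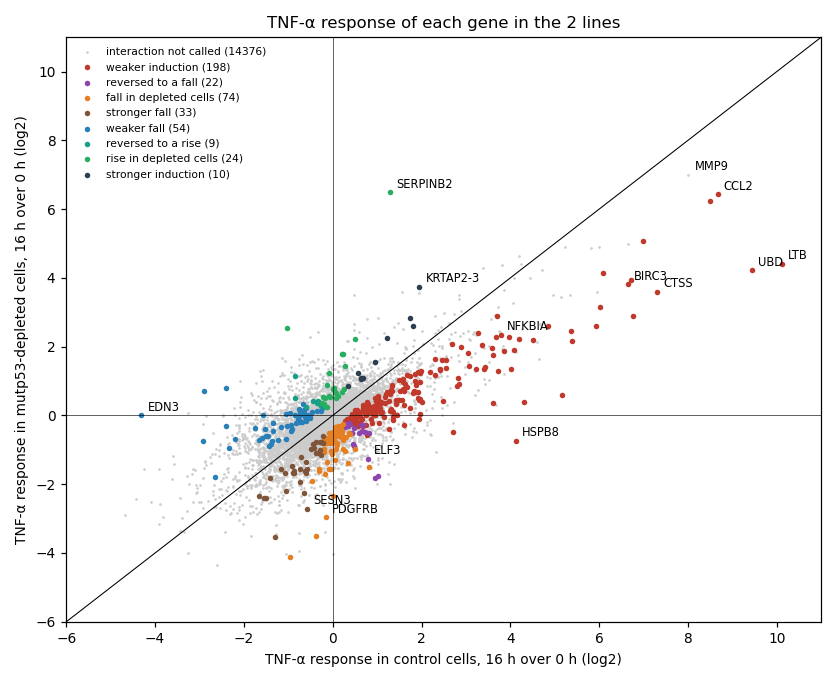
The TNF-α response of each of the 14800 genes in control cells (x axis) and depleted cells (y axis), both as log2 of 16 h over 0 h from the limma model, with the diagonal marking equal responses and colours giving the 8 forms of interaction. Strongly induced genes such as LTB (10.12 against 4.41) and UBD (9.44 against 4.22) lie far under the diagonal, and SERPINB2 (1.30 against 6.49) lies far above it.

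Lower responses were most frequent among genes with the strongest average response of the lines, a ranking that treats the lines alike. Of the 137 genes whose average response was a log2 of at least 2, 40 were called lower (29.2%) and 4 higher (2.92%), and the median interaction was -1.01. Of the 269 genes with an average response from 1 to 2, 43 were lower (16.0%) and 4 higher. Among genes that fell the counts were closer. Of 699 genes with an average response from -2 to -1, 22 were lower (3.15%) and 13 higher (1.86%), with a median interaction of -0.01.

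A lower response can come from a lower level at 16 h, a higher level at 0 h, or both, and the 198 genes with a weaker induction held all of these. Before TNF-α, 121 of them were higher in depleted cells (27.3% of all genes tested were) and 34 were lower (25.2% of all). At 16 h, 108 were lower (26.5% of all genes) and 37 were higher (24.9% of all). Taken by both times, 53 were higher at 0 h and not different at 16 h by the test, 43 were not different at 0 h and lower at 16 h, 31 were higher at 0 h and lower at 16 h, 34 were lower and 37 higher at both. In the 54 genes with a weaker fall, 44 were already lower in depleted cells at 0 h. The comparison at 0 h uses the same libraries as the interaction, so this split describes the genes and is no separate test.

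**Figure D2:**
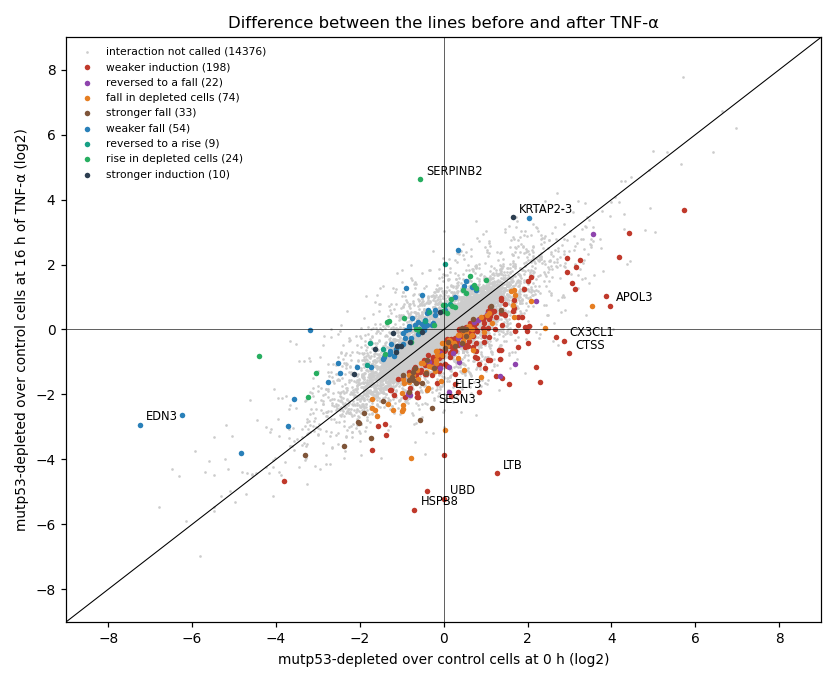
The difference between the lines at 0 h (x axis) and at 16 h of TNF-α (y axis), as log2 of mutp53-depleted over control cells for each of the 14800 genes, with colours giving the form of interaction. UBD and LTB left the diagonal through the 16 h level (-5.22 and -4.43), whereas APOL3 and CX3CL1 were far higher in depleted cells at 0 h (3.97 and 2.86) and closer to control cells at 16 h (0.73 and -0.34).

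The genes of the NFκB system itself had lower responses. Of 34 tested NFκB subunits, IκB proteins and feedback inhibitors, 13 were called lower (38.2%, against 2.21% of all genes) and none higher, and the median interaction was -0.43 against -0.03. The 13 were BIRC3, NFKBIA, NFKB2, IKBKE, BCL3, TNIP1, CYLD, RELB, BIRC2, NFKBIE, TNFAIP3, REL and NFKB1, with interactions from -2.84 to -0.46. All 13 rose in control cells and 12 of them also rose in depleted cells. Before TNF-α, 12 of the 13 were higher in depleted cells, as were 22 of the 34 tested (27.3% of all genes tested were). At 16 h 6 of the 13 were lower (26.5% of all genes), 6 did not pass the test and 1 was higher (24.9% of all). The libraries compared here also enter the interaction that chose the 13, so these counts are no separate test. On the recovered reads edgeR called 14 of the list lower and DESeq2 11, and none higher, and at an unadjusted limma p under 0.05 18 were lower and 1 higher.

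NFKBIA (chr14:35870716-35873960 in hg19), which encodes IκBα, the inhibitor that ends a round of NFκB activity, had 131 and 114 normalized reads in control cells before TNF-α and 1808 and 1568 after 16 h, against 226 and 195 before and 1097 and 1053 after in depleted cells. The groups did not overlap, and depleted cells started higher and ended lower. Its rise was 13.8-fold in control cells and 5.11-fold in depleted cells, with an interaction of -1.43 ± 0.15 (limma adjusted p = 2.6e-05). NFKB2, the precursor of the p52 subunit, rose 5.89-fold and 3.09-fold, and its interaction was -0.93 ± 0.11 (limma adjusted p = 6.7e-05). IKBKE, an IκB kinase-related kinase, rose 5.34-fold and 2.57-fold, with -1.05 ± 0.13 (limma adjusted p = 0.00015). All of these were called in 16 of 16 alternative analyses.

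BIRC3 (chr11:102188181-102210135 in hg19), which encodes the ubiquitin ligase cIAP2 of the TNF receptor complex, differed from these in its levels. It had 7.98 and 16.7 normalized reads in control cells before TNF-α and 1371 and 1169 after 16 h, against 188 and 176 before and 2591 and 2541 after in depleted cells. Depleted cells were higher at both times, with no overlap, and the ratio of depleted to control cells narrowed from 14.8-fold at 0 h to 2.02-fold at 16 h. The rise was 103-fold in control cells and 14.1-fold in depleted cells, an interaction of -2.84 ± 0.28 (limma adjusted p = 1.5e-05). In normalized reads, however, the increase was 1258 in control cells and 2384 in depleted cells, so the sign of the difference depends on the scale.

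To put letters beside these responses, the stretches of promoter around NFκB-like matches are shown for 8 genes with a lower response, 4 of the NFκB system, 3 of its strongly induced targets and ELF3, whose response was reversed. The sequences are those of RefSeq on GRCh38.p14, 5′ to 3′ on the strand of the gene, with the letters GGGNNNTTCC or their reverse complement GGAANNNCCC in capitals. They come from LTB (chr6:31582477-31582536, minus strand), UBD (chr6:29559751-29559810, minus strand), BIRC3 (chr11:102317260-102317319, plus strand), IL32 (chr16:3065279-3065338, plus strand), NFKBIA (chr14:35404796-35404855, minus strand), TNFAIP3 (chr6:137867167-137867238, plus strand), NFKB1 (chr4:102501285-102501344, plus strand) and ELF3 (chr1:202010474-202010533, plus strand), all upstream of the annotated start, outside the transcript.
LTB: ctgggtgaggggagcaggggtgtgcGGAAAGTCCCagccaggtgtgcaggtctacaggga
UBD: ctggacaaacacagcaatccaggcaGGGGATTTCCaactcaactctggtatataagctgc
BIRC3: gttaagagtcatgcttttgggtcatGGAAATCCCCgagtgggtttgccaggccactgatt
IL32: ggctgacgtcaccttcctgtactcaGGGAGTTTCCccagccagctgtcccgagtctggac
NFKBIA: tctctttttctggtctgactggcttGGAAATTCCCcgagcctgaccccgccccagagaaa
TNFAIP3: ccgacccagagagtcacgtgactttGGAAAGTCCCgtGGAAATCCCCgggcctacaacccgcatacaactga
NFKB1: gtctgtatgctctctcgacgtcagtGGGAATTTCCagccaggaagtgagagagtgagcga
ELF3: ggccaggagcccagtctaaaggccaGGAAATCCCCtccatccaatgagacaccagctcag
TNFAIP3 holds 2 matches and the others 1. The first matched base lay 86 bases before the start in LTB, 53 in UBD, 199 in BIRC3, 81 in NFKBIA and 49 in NFKB1.

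In the window from 250 bases before to 50 after the start, read on both strands, 7.55% of the promoters of 11528 tested genes that matched the RefSeq table held such letters. The share was 10.8% of the 1312 genes that rose in control cells, 15.1% of 152 genes with a weaker induction (23 promoters), 10.2% of 1133 genes that rose in control cells with no call in the interaction, and 2.5% of 80 genes with a lower response that did not rise in control cells (2 promoters). For the interferon-type letters TTTCNNTTTC or GAAANNGAAA the shares were 2.63% of all and 7.89% of the weaker induction genes (12 promoters). They were 4.15% of the other induced genes and 6.25% of the 80 genes with a lower response that did not rise in control cells (5 promoters). The AP-1-type letters TGANTCA, which read the same on both strands, were in 4.42% of all, in 6.58% of the weaker induction genes, in 6.18% of the other induced genes and in 11.1% of 72 genes with a higher response (8 promoters). A match is a description of the letters and not a bound site, and the genes of a group are not independent replicates.

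Cytokines and other ligands held some of the widest differences. LTB (chr6:31548336-31550202 in hg19), lymphotoxin beta, a membrane ligand of the TNF family, had 4.35 and 0 normalized reads in control cells before TNF-α and 2791 and 2374 after 16 h, against 7.37 and 2.74 before and 151 and 92.6 after in depleted cells. The lines overlapped at 0 h and were far apart at 16 h, where control cells were 21.2-fold higher, giving an interaction of -5.71 ± 0.74 (limma adjusted p = 0.00017). TNF itself was at no more than 3 reads in the libraries at 0 h and reached 152 and 124 normalized reads in control cells and 41.9 and 29.6 in depleted cells at 16 h. Its interaction was -2.77 ± 0.63 (limma adjusted p = 0.02), called in 6 of 16 alternatives, and its size follows the added constant because of the low start. TNFSF10, the death ligand TRAIL, had 22.5 and 30.3 normalized reads in control cells before TNF-α and 50.3 and 56.9 after 16 h, against 67 and 67.2 before and 20.1 and 18.5 after in depleted cells. It thus rose in control cells and fell in depleted cells, with an interaction of -2.75 ± 0.37 (limma adjusted p = 0.00025). These 3 were the called members of 11 tested TNF family ligands (27.3%), and at an unadjusted limma p under 0.05 4 were lower and 0 higher.

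Chemokines recruit leukocytes to inflamed tissue, and 2 of 7 tested CC chemokines (28.6%) and 1 of 8 CXC and CX3C chemokines (12.5%) were called lower. CCL2, the main attractant of monocytes, had 3.63 and 3.03 normalized reads in control cells before TNF-α and 1968 and 1561 after 16 h, against 5.36 and 2.74 before and 576 and 305 after in depleted cells. The lines overlapped at 0 h, and at 16 h control cells were 4.01-fold higher with no overlap. Its interaction was -2.24 ± 0.41 (limma adjusted p = 0.0041), but neither edgeR nor DESeq2 called it or any other CC chemokine. CCL7, a neighbour of CCL2 in the genome, was at 0 in all libraries at 0 h and at 139 and 82.5 against 10.9 and 3.7 at 16 h (interaction -3.85 ± 0.87, limma adjusted p = 0.019). CX3CL1, the membrane-bound fractalkine, had 6.53 and 9.09 normalized reads in control cells before TNF-α and 57 and 55.5 after 16 h, against 64.3 and 60.3 before and 61.2 and 32.1 after in depleted cells. It rose in control cells and did not pass the test in depleted cells, which had 60.3 or more at 0 h, giving an interaction of -3.20 ± 0.44 (limma adjusted p = 0.00029).

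Among 17 interleukins and colony-stimulating factors, IL32 and CSF1 were called lower (11.8%), and the median of the list was -0.67. IL32, a proinflammatory cytokine, had 937 and 854 normalized reads in control cells and 473 and 471 in depleted cells at 16 h, after at most 6.7 in any library at 0 h, an interaction of -2.26 ± 0.34 (limma adjusted p = 0.00074). Because of the low start its size follows the added constant, with -2.89 to -1.59 over the alternatives, and DESeq2 did not call it (adjusted p = 0.079). CSF1, the growth factor of macrophages, rose 16.1-fold and 3.78-fold, with -1.98 ± 0.37 (limma adjusted p = 0.0043). TNFRSF6B, a soluble decoy receptor for TNF family ligands, had 152 and 179 normalized reads in control cells before TNF-α and 3074 and 2993 after 16 h, against 53.6 and 45.2 before and 242 and 222 after in depleted cells, with an interaction of -1.98 ± 0.17 (limma adjusted p = 2.3e-06). The readthrough gene RTEL1-TNFRSF6B covers the same exons, so the counts of this pair are uncertain. In contrast, TNFRSF21, a death receptor, fell in control cells (log2 -0.45) and rose in depleted cells (0.43), with 0.88 ± 0.13 (limma adjusted p = 0.0006). EDAR, the ectodysplasin receptor, fell in both lines and further after depletion (-1.06 and -2.19).

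**Figure D3:**
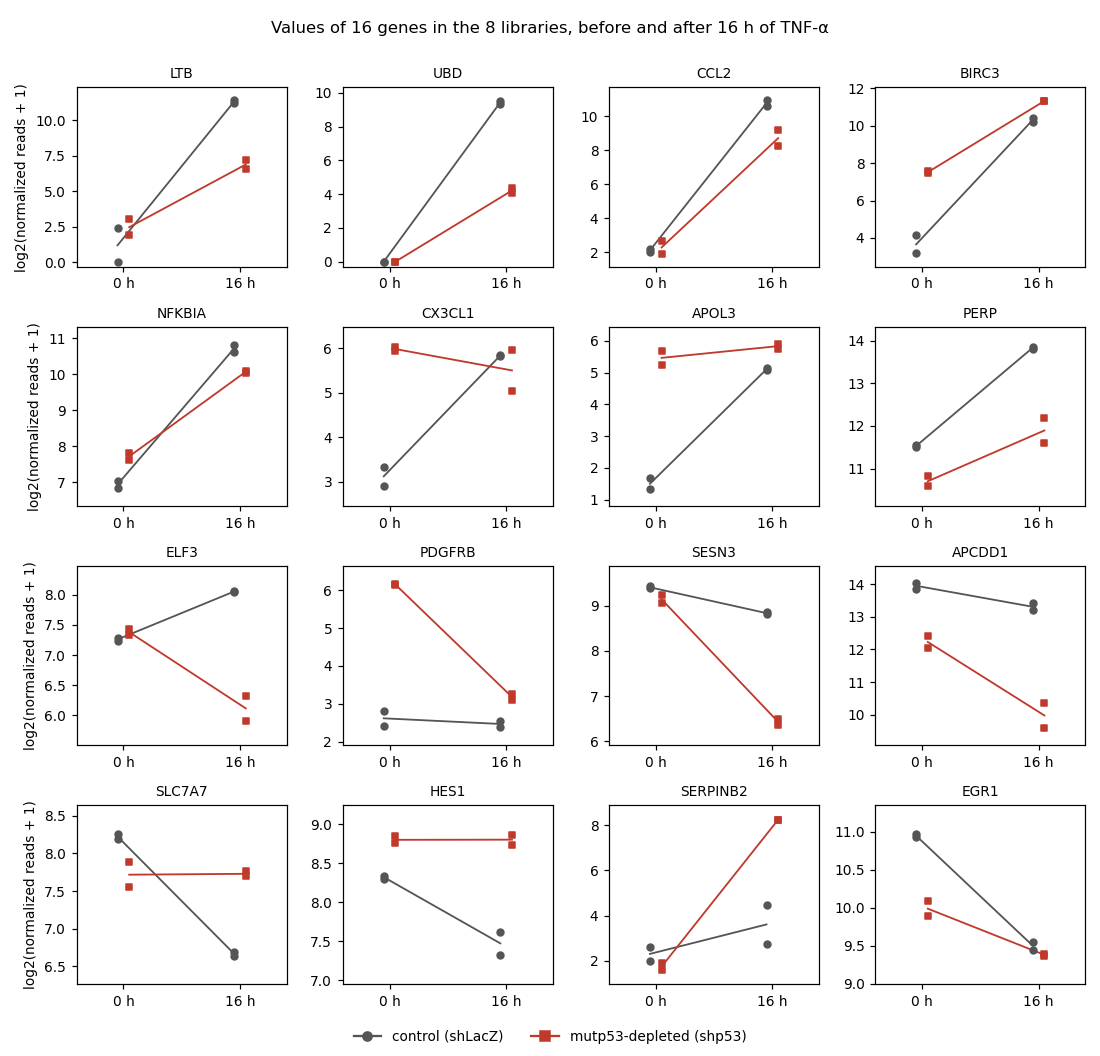
Log2(normalized reads + 1) of 16 genes in each of the 8 libraries at 0 h and 16 h, with circles for control cells, squares for depleted cells, 2 points per group and a line joining the group means. LTB and UBD start together and separate at 16 h, APOL3 and CX3CL1 start far apart and end closer, ELF3 moves in opposite directions and SERPINB2 rises in depleted cells.

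Interferon genes also had lower responses. Of 46 tested interferon regulatory factors and interferon-stimulated genes, 10 were called lower (21.7%) and none higher, with a median of -0.41. The 10 were APOL6, APOL3, PARP14, IRF2, IFIH1, UBE2L6, ISG20, GBP3, IRF3 and IRF1. All 10 rose in control cells, 2 rose in depleted cells and 8 did not pass the test there. At 0 h 9 of the 10 were already higher in depleted cells, as were 23 of the 46 tested (27.3% of all genes tested were). At 16 h 6 of the 10 did not differ between the lines by the test, 2 were higher (24.9% of all genes) and 2 lower (26.5% of all). These counts use the libraries of the interaction that chose the 10 and are no separate test. DESeq2 called 5 of the list lower and edgeR 10, neither called any higher, and at an unadjusted limma p under 0.05 14 were lower and 0 higher. Over the whole list 20 genes rose in control cells and 7 in depleted cells.

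APOL3, an interferon-induced apolipoprotein L, had 2.18 and 1.51 normalized reads in control cells before TNF-α and 32.9 and 34.1 after 16 h, against 36.9 and 50.7 before and 59.5 and 53.1 after in depleted cells. Every depleted library was above every control library, and the difference shrank with TNF-α (interaction -3.24 ± 0.47, limma adjusted p = 0.00043). APOL6 of the same family rose 3.05-fold in control cells and was at 186 ± 1.31 and 228 ± 20.4 normalized reads (mean ± SD, n = 2) in depleted cells at 0 h and 16 h, with -1.31 ± 0.18 (limma adjusted p = 0.00034). PARP14, an ADP-ribosyltransferase, went from 387 ± 7.52 to 749.8 ± 10.1 in control cells and from 758 ± 29 to 859 ± 44.9 in depleted cells (-0.77 ± 0.11, limma adjusted p = 0.00054). IRF2, a transcription factor that binds interferon response elements, had an interaction of -0.84 ± 0.16 (limma adjusted p = 0.0051). Of the transducers, STAT6, which carries interleukin signals, rose in control cells (0.80) and changed by 0.10 in depleted cells (-0.70 ± 0.10, limma adjusted p = 0.00048). Its mean was higher in depleted cells at both times, 1857 against 671 normalized reads at 0 h and 1985 against 1166 at 16 h. STAT2, a transducer of type I interferon signaling, fell in depleted cells (-0.43) and changed by 0.15 in control cells (-0.58 ± 0.14, limma adjusted p = 0.031, called in 8 of 16 alternatives).

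Antigen presentation genes rose in both lines, 21 of 29 tested in each, yet 6 had a lower response (20.7%) and 1 a higher one. UBD (chr6:29523389-29527702 in hg19), the ubiquitin-like modifier FAT10, was at 0 in all 4 libraries at 0 h and had 744 and 647 normalized reads in control cells and 19.3 and 16 in depleted cells at 16 h, a 39.4-fold difference. Against 3 reads per library, its rise reached at least 207-fold in control and 5.77-fold in depleted cells, both as lower bounds, and the fitted interaction was -5.22 ± 0.61 (limma adjusted p = 6.7e-05). It was called in 14 of 16 alternatives and lost with both count models (edgeR adjusted p = 1.0, DESeq2 adjusted p = 0.26). CTSS, the protease cathepsin S, which processes the invariant chain, had 1.45 and 6.06 normalized reads in control cells before TNF-α and 684 and 630.2 after 16 h, against 35.5 and 28.8 before and 498 and 316 after in depleted cells, with an interaction of -3.71 ± 0.48 (limma adjusted p = 0.00016). CD74, the invariant chain itself, rose 8.37-fold and 3.39-fold (-1.23 ± 0.30, limma adjusted p = 0.031, called in 7 of 16 alternatives). PSMB10, a catalytic subunit of the immunoproteasome, rose 2.27-fold and 1.45-fold (-0.65 ± 0.16, limma adjusted p = 0.032, called in 8 of 16). DESeq2 called 2 members of the list lower and edgeR 5.

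Other induced genes with a lower response belonged to several functions. SAA1, serum amyloid A, an acute-phase protein, had 51.5 and 71.2 normalized reads in control cells before TNF-α and 796 and 718 after 16 h, against 259 and 214 before and 783 and 824 after in depleted cells, and the lines overlapped at 16 h but not at 0 h (-1.85 ± 0.19, limma adjusted p = 2.6e-05). SAA1 and its close copy SAA2 share sequence, and reads could be split between them. PLAT, tissue plasminogen activator, rose 11.5-fold and 2.57-fold (-2.05 ± 0.32, limma adjusted p = 0.0011). HSPB8, a small heat-shock protein, had 4.35 and 4.54 in control cells at 0 h, 93.8 and 93.9 at 16 h, and 3 reads or fewer in all 4 depleted libraries, so that control cells were at least 30.2-fold higher at 16 h. SOD2, mitochondrial superoxide dismutase, rose 3.1-fold and 1.9-fold (-0.70 ± 0.15, limma adjusted p = 0.013). In the cell death list, 3 of 33 tested genes were called lower (9.09%), among them BID, which links death receptors to mitochondria (-0.80 ± 0.14, limma adjusted p = 0.0022), and CASP9, the initiator caspase of the mitochondrial route, which rose in control cells and fell in depleted cells (0.48 against -0.89, -1.37 ± 0.24, limma adjusted p = 0.0026).

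**Figure D4:**
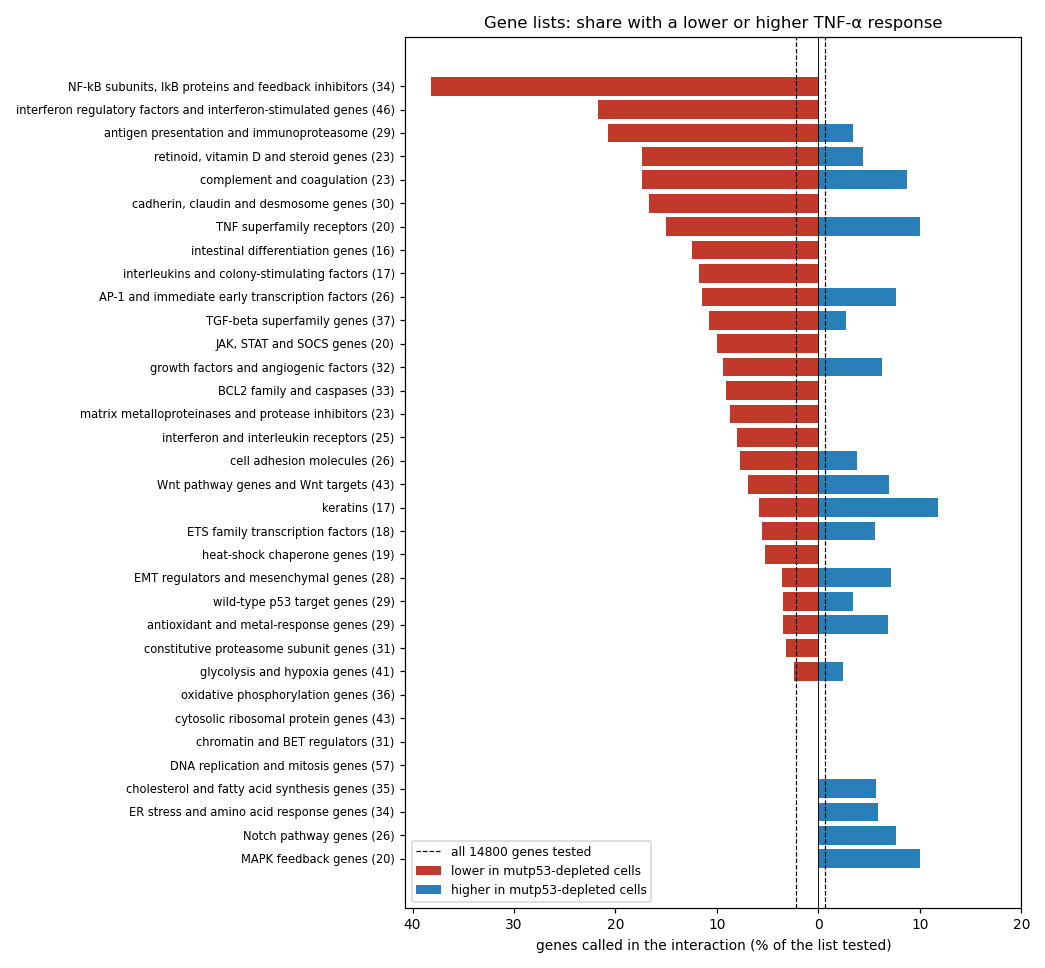
For each gene list with at least 15 tested genes (number in brackets), the percentage called lower (red, to the left) and higher (blue, to the right) in the interaction, with dashed lines at the share of all 14800 genes tested (2.21% lower and 0.655% higher). The NFκB list reaches 38.2% lower, the interferon list 21.7% and the antigen presentation list 20.7%, and the ribosomal, oxidative phosphorylation, chromatin and mitosis lists have no called gene.

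Epithelial genes formed another group with lower responses. The list of cadherin, claudin and desmosome genes also held genes of other cell junctions, such as GJB2. Of its 30 tested genes, 5 were called lower (16.7%) and none higher, namely JUP, PERP, CGN, CLDN1 and GJB2. The call of GJB2 held in 5 of 16 alternatives and was lost with DESeq2 (adjusted p = 0.088). DESeq2 called 4 lower and edgeR 5, neither called any higher, and at an unadjusted limma p under 0.05 12 were lower and 0 higher. PERP, a desmosome protein, had 2894 and 3013 normalized reads in control cells before TNF-α and 14869 and 14275 after 16 h, against 1803 and 1536 before and 4684 and 3080.3 after in depleted cells, lower in depleted cells at both times and more so after TNF-α (-1.11 ± 0.18, limma adjusted p = 0.0013). CGN, cingulin of tight junctions, rose in control cells (1.94) and changed by -0.11 in depleted cells (-2.05 ± 0.39, limma adjusted p = 0.0052). CLDN1, a tight junction claudin, rose 3.19-fold and 1.8-fold (-0.83 ± 0.17, limma adjusted p = 0.011). JUP, plakoglobin, fell in both lines, to 1142 ± 41.8 from 1379 ± 74.8 in control cells and to 850.1 ± 45.1 from 1869.7 ± 36 in depleted cells (mean ± SD, n = 2, -0.87 ± 0.10, limma adjusted p = 0.0001).

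The epithelial ETS factors ELF3 and EHF had interactions of opposite sign. ELF3 (chr1:201979690-201986315 in hg19) had 155 and 150.0 normalized reads in control cells before TNF-α and 262 and 267 after 16 h, against 171 and 160.4 before and 78.8 and 59.2 after in depleted cells. All 4 libraries at 0 h lay between 150.0 and 171, and at 16 h every control library was above and every depleted library below that range (log2 0.79 against -1.26, interaction -2.06 ± 0.22, limma adjusted p = 2.8e-05). EHF had 101 and 99.99 normalized reads in control cells before TNF-α and 137 and 148 after 16 h, against 13.4 and 9.6 before and 62 and 50.6 after in depleted cells, so it was lower in depleted cells at both times and rose there (2.21), with an interaction of 1.71 ± 0.32 (limma adjusted p = 0.0052). Among adhesion molecules, ICAM1, a ligand of leukocyte integrins, rose 13.1-fold and 7.33-fold (-0.80 ± 0.20, limma adjusted p = 0.04, called in 8 of 16 alternatives). ITGAV, the integrin αV chain, rose in control cells (0.95) and changed by 0.19 in depleted cells (-0.76 ± 0.13, limma adjusted p = 0.0029). CD44, the hyaluronan receptor, had a stronger rise after depletion (0.68 against 1.10, 0.42 ± 0.10, limma adjusted p = 0.029, called in 8 of 16). ERBB3, a receptor of the EGF receptor family, fell in depleted cells (-1.07) and changed by -0.22 in control cells (-0.85 ± 0.16, limma adjusted p = 0.0046).

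In the TGF-β superfamily 4 of 37 tested genes were called lower (10.8%) and 1 higher (2.7%), and 3 of the 4 fell in depleted cells. TGFB2, a TGF-β ligand, rose in control cells from 48.8 ± 11.1 to 85.3 ± 7.92 and fell in depleted cells from 225 ± 6.99 to 157 ± 14.1 normalized reads (mean ± SD, n = 2, -1.33 ± 0.25, limma adjusted p = 0.0052). BMP4, a bone morphogenetic protein, was reversed in the same way but by less (0.24 and -0.29, -0.53 ± 0.10, limma adjusted p = 0.0048). TGFBR3, the co-receptor betaglycan, fell in depleted cells (-1.39) and changed by 0.34 in control cells (-1.72 ± 0.28, limma adjusted p = 0.0016). SMAD3, the transducer of TGF-β signals, rose in both lines, less after depletion (1.05 and 0.41, -0.65 ± 0.12, limma adjusted p = 0.0056).

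Nuclear receptor and retinoid genes also had lower responses, 4 of 23 tested (17.4%) with 1 higher (4.35%), although the median of the list was 0.01. DHRS3, a retinal reductase, had 695 and 694 normalized reads in control cells before TNF-α and 674 and 553 after 16 h, against 349.8 and 349.6 before and 122 and 92.6 after in depleted cells. It fell in depleted cells, to the lowest values of the 4 groups, and did not pass the test in control cells (-1.52 ± 0.18, limma adjusted p = 6.7e-05). VDR, the vitamin D receptor, fell in depleted cells (-0.46) and changed by 0.09 in control cells (-0.55 ± 0.10, limma adjusted p = 0.0031). RARG, a retinoic acid receptor, fell in both lines and further after depletion (-0.29 and -1.01, -0.71 ± 0.14, limma adjusted p = 0.0052).

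The 33 genes with a stronger fall after depletion included SESN3 and the Wnt genes APCDD1 and NOTUM. SESN3 (chr11:94898677-94964246 in hg19), a stress-inducible regulator of mTORC1 signaling, had 689 and 671 normalized reads in control cells before TNF-α and 464 and 449.6 after 16 h, against 602 and 531 before and 81.3 and 88.9 after in depleted cells. It fell to 0.67 of the 0 h level in control cells and to 0.15 in depleted cells, an interaction of -2.15 ± 0.14 (limma adjusted p = 1.2e-07). APCDD1, an inhibitor of Wnt signaling and a Wnt target, had 16870.3 and 14979.9 normalized reads in control cells before TNF-α and 10976 and 9424 after 16 h, against 5426 and 4260.2 before and 1318 and 765 after in depleted cells (-1.61 ± 0.23, limma adjusted p = 0.00043). NOTUM, which inactivates Wnt proteins, fell in both lines (-0.74 and -1.95, -1.21 ± 0.30, limma adjusted p = 0.032, called in 7 of 16 alternatives). Both of these Wnt genes lost more normalized reads in control cells. The changes in control and depleted cells were -5725 and -3802 for APCDD1 and -714 and -256 for NOTUM. For SESN3 they were -223 and -481. WNT10A, a Wnt ligand, rose in control cells from 376 ± 44.4 to 1246 ± 147 and was at 143 ± 24.1 and 167 ± 30.4 in depleted cells (mean ± SD, n = 2, -1.51 ± 0.20, limma adjusted p = 0.0002). The 43 tested Wnt genes had 3 called lower (6.98%) and 3 called higher (6.98%), with 28 that fell in control cells and 30 in depleted cells. TSPAN2, a tetraspanin, fell to 0.39 of the 0 h level in control cells and, with 2 reads per library left, to at most 0.09 in depleted cells (-2.24 ± 0.49, limma adjusted p = 0.016, called in 8 of 16).

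PDGFRB, the platelet-derived growth factor receptor β, was higher in depleted cells than in control cells before TNF-α, with 4.35 and 6.06 normalized reads in control cells before TNF-α and 4.83 and 4.27 after 16 h, against 69.7 and 69.9 before and 7.55 and 8.64 after in depleted cells. It fell there to the low level of control cells, an interaction of -2.81 ± 0.58 (limma adjusted p = 0.0099). SLC2A12, a glucose transporter, had 16 and 15.2 normalized reads in control cells before TNF-α and 27.1 and 35.6 after 16 h, against 52.9 and 52.1 before and 10.9 and 18.5 after in depleted cells, a rise in control cells and a fall in depleted cells (-2.77 ± 0.46, limma adjusted p = 0.0018). PHLDA3, an inhibitor of AKT and a target of wild-type p53, went the same way (0.43 against -0.52, -0.94 ± 0.11, limma adjusted p = 6.5e-05). It was the 1 gene called lower of 29 tested genes in the list of wild-type p53 targets (3.45%). GADD45A, a growth arrest gene, was the 1 called higher in that list (3.45%). The list is a selection and does not hold every target of wild-type p53. GADD45A fell in control cells (-0.68) and changed by 0.32 in depleted cells (1.00 ± 0.18, limma adjusted p = 0.0038), and the median of the list was 0.02.

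The 54 genes with a weaker fall after depletion included EGR1, HES1 and SLC7A7. EGR1, an immediate early transcription factor, fell from 1974 ± 40.4 to 725 ± 37.2 in control cells and from 1017 ± 94.8 to 666 ± 6.52 in depleted cells (mean ± SD, n = 2, 0.84 ± 0.11, limma adjusted p = 0.00025) and the lines were closer at 16 h than at 0 h. HES1, the best-known Notch target, had 323 and 315 normalized reads in control cells before TNF-α and 196 and 159 after 16 h, against 430.2 and 459 before and 426 and 465 after in depleted cells. It fell in control cells and changed by 0.00 on the log2 scale in depleted cells (0.85 ± 0.16, limma adjusted p = 0.0047). NOTCH1 fell in control cells (-0.62) and changed by -0.04 in depleted cells (0.57 ± 0.13, limma adjusted p = 0.02, called in 10 of 16 alternatives). These were 2 of 26 tested Notch genes (7.69%), and none was lower by limma, edgeR or DESeq2, with 3 lower at an unadjusted limma p under 0.05.

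SLC7A7 and SLC3A2 encode the light and heavy chain of an amino acid exchanger. SLC7A7 had 306 and 291 normalized reads in control cells before TNF-α and 98.6 and 102 after 16 h, against 235 and 186 before and 216 and 206 after in depleted cells, a fall to 0.34 of the 0 h level in control cells with no matching change in depleted cells (1.57 ± 0.19, limma adjusted p = 0.0001). SLC3A2 fell in control cells (-0.75) and changed by 0.18 in depleted cells (0.93 ± 0.12, limma adjusted p = 0.00018). Of 35 cholesterol and fatty acid synthesis genes, 32 fell in control cells and 31 in depleted cells, while 27 of 35 had an interaction above 0, with a median of 0.24. For comparison, 53.3% of the 1517 genes with an average response from -1 to -0.5 had an interaction below 0. CYP51A1 (0.55 ± 0.12, limma adjusted p = 0.017) and DHCR7 (0.56 ± 0.14, limma adjusted p = 0.032, called in 8 of 16 alternatives), enzymes of the late sterol pathway, were called higher (5.71% against 0.655% of all genes), edgeR called 7 and DESeq2 4. Both were lower in depleted cells at 0 h, by -1.31 and -1.43 on the log2 scale.

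Among extracellular genes, CTGF, a matricellular protein, had 141 and 161 normalized reads in control cells before TNF-α and 30.9 and 11.4 after 16 h, against 79.1 and 79.5 before and 41.9 and 53.1 after in depleted cells, a larger fall in control cells (2.19 ± 0.45, limma adjusted p = 0.0091). COL6A3, a collagen VI chain, fell in control cells from 72.2 ± 22.1 to 12.7 ± 3.9 and was at 89.8 ± 2.88 and 73 ± 4.9 in depleted cells (mean ± SD, n = 2, 2.12 ± 0.38, limma adjusted p = 0.0031). EDN3, an endothelin, had the largest positive value of this form, 4.31 ± 0.79, but it was at 0 in all 4 depleted libraries, where no fall could be seen. Its call was lost with both count models (edgeR adjusted p = 1.0, DESeq2 adjusted p = 0.42) and held in 12 of 16 alternatives. It had 197 and 115 normalized reads at 0 h and 7.73 and 5.69 at 16 h in control cells.

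The 9 genes that turned from a fall to a rise included UCN2, a peptide hormone of the urocortin family, with 28.3 and 30.3 normalized reads in control cells before TNF-α and 17.4 and 14.2 after 16 h, against 34.2 and 26.1 before and 63.7 and 71.6 after in depleted cells (2.01 ± 0.40, limma adjusted p = 0.0074). NPAS2, a clock transcription factor, fell to 0.56 of the 0 h level in control cells and rose 1.44-fold in depleted cells (1.34 ± 0.24, limma adjusted p = 0.0037). SFN, stratifin, a cell cycle regulator of epithelial cells, changed by -0.61 and 0.25 (0.87 ± 0.11, limma adjusted p = 0.00015), and OSBPL5, a lipid transfer protein, by -0.33 and 0.42 (0.75 ± 0.14, limma adjusted p = 0.0057). In all of NPAS2, SFN and OSBPL5 the depleted cells stayed below control cells at 16 h.

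SERPINB2 (chr18:61554939-61571124 in hg19), the inhibitor PAI-2 of plasminogen activators, had the largest positive interaction of the genes named, 5.19 ± 0.68 (limma adjusted p = 0.00018). It had 5.08 and 3.03 normalized reads in control cells before TNF-α and 21.3 and 5.69 after 16 h, against 2.01 and 2.74 before and 302 and 299.9 after in depleted cells. All 4 libraries at 0 h lay between 2.01 and 5.08, and at 16 h the depleted libraries were far above the control libraries, which differed from each other. KRT75, a keratin, rose in depleted cells from 4.02 and 0 to 16.8 and 8.64 and was at 20.3 to 50.8 in control cells, so depleted cells stayed below them (3.58 ± 0.81, limma adjusted p = 0.019, called in 7 of 15 alternatives). IGF2, an insulin-like growth factor, rose 3.47-fold in depleted cells and 1.16-fold, which did not pass the test, in control cells (1.55 ± 0.19, limma adjusted p = 0.0001). Its reads are shared with the readthrough gene INS-IGF2, also called, and the pair is 1 signal. LAMA3, a laminin chain of the epithelial basement membrane, rose in depleted cells (0.68) and changed by 0.05 in control cells (0.63 ± 0.12, limma adjusted p = 0.006).

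Of the 10 genes with a stronger induction, 8 were lower in depleted cells at 0 h (25.2% of all genes tested were). The same 0 h libraries enter the interaction, so this count describes the genes and is no separate test. CD82, a tetraspanin, rose 3.5-fold and 6.04-fold (0.79 ± 0.14, limma adjusted p = 0.0029). Its increase in normalized reads was larger in control cells, 2666 against 1212 in depleted cells, so the sign depends on the scale. PHLDA2, an imprinted growth regulator, rose 1.48-fold and 2.33-fold (0.65 ± 0.12, limma adjusted p = 0.0052). MT2A, a metal-binding metallothionein of a family of close copies, rose 1.94-fold and 2.97-fold (0.61 ± 0.12, limma adjusted p = 0.0052). Its increase in normalized reads was 3570 in control cells and 3435 in depleted cells. PHLDA2 increased more in depleted cells on that scale too (534 against 208 in control cells). KRTAP2-3, a keratin-associated protein gene, was the exception that started higher, and it rose from 34.3 ± 9.66 to 466 ± 12.7 in depleted cells against 10.0 ± 0.83 to 41.7 ± 2.6 in control cells (mean ± SD, n = 2, 1.80 ± 0.34, limma adjusted p = 0.0051).

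Some strongly induced genes had no call in the interaction. MMP9, a secreted protease that degrades basement membrane, had 2.18 and 0 normalized reads in control cells before TNF-α and 568 and 369.9 after 16 h, against 0.67 and 0 before and 172 and 158 after in depleted cells. It was 2.84-fold higher in control cells at 16 h (limma adjusted p = 0.012). However, it was at no more than 3 reads in the libraries at 0 h, and its interaction was -1.01 ± 0.65 (limma adjusted p = 0.55), with -1.84 to 0.16 over the alternatives. CPA4, a carboxypeptidase, was likewise at no more than 3 reads in the libraries at 0 h, and its interaction was -1.85 ± 0.81 (limma adjusted p = 0.31). Its level at 16 h did not differ between the lines by the test (limma adjusted p = 0.23). CYP24A1, which inactivates vitamin D, rose 4.44-fold and 2.28-fold (-1.01 ± 0.35, limma adjusted p = 0.16). Its level was lower in depleted cells at both times. The log2 difference was -0.75 at 0 h (limma adjusted p = 0.016) and -1.76 at 16 h (limma adjusted p = 9.2e-06). The interaction of CYP24A1 was called in 1 of 16 alternatives, and those of MMP9 and CPA4 in none.

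Of the lists of basic cell functions, 4 held no called gene. None of 43 cytosolic ribosomal protein genes, 36 oxidative phosphorylation genes, 31 chromatin regulators or 57 DNA replication and mitosis genes was called by limma, edgeR or DESeq2. At an unadjusted limma p under 0.05 the counts lower and higher were 0 and 0 for the ribosomal, 2 and 0 for the oxidative phosphorylation, 2 and 2 for the chromatin and 0 and 11 for the replication and mitosis genes. In the last list 51 of 57 values lay above 0, with a median of 0.16, as 36 genes fell in control cells and 20 in depleted cells. CCNA2, a cyclin, had the smallest p of that list (-0.51 in control cells and -0.17 in depleted cells, interaction 0.34 ± 0.11, limma adjusted p = 0.12). Of 31 constitutive proteasome subunit genes, PSMC6 was called lower (3.23%), with -0.58 ± 0.15 (limma adjusted p = 0.041, called in 4 of 16 alternatives), none was called higher, and 27 of 31 values lay below 0, with a median of -0.13. Of 41 glycolysis and hypoxia genes 1 was called lower and 1 higher (2.44% each).

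The interaction is a difference of ratios, and the picture was also drawn in normalized reads. Of the 198 genes with a weaker induction, 186 had a smaller increase in depleted cells in normalized reads too, and the median over the 198 genes of the increase in depleted cells, as a share of that in control cells, was 24.9%. For the other 12 (6.06%) the increase was larger in depleted cells. BIRC3, NT5E, GPRC5A, ACSL5 and MAOA had the largest increases of these and were chosen after the values were seen. MAOA, a monoamine oxidase, increased by 89.99 normalized reads in control cells and 370.11 in depleted cells. Over all called genes, the sign was opposite in normalized reads for 22 of 327 lower and 7 of 97 higher.

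**Figure D5:**
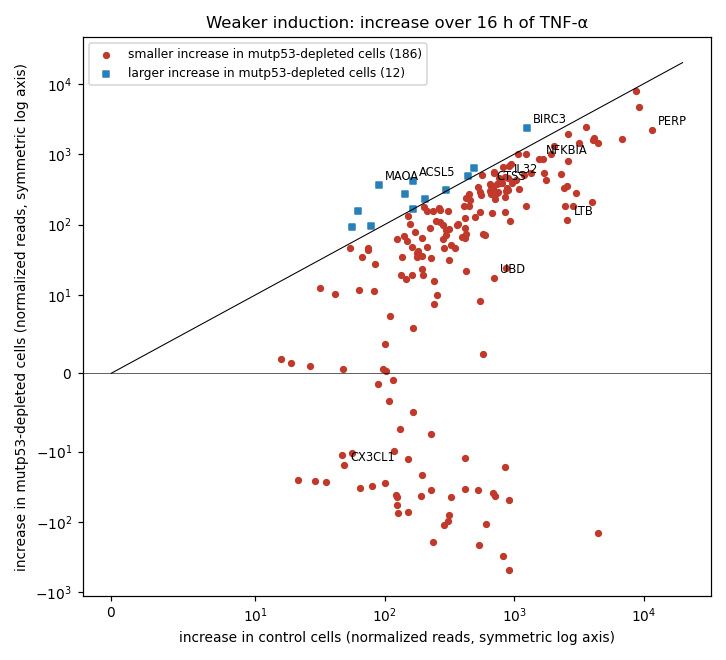
The increase in normalized reads from 0 h to 16 h in control cells (x axis) and depleted cells (y axis) for the 198 genes with a weaker induction, on symmetric log axes that are linear near 0, with the diagonal marking equal increases. Blue squares mark the 12 genes, among them BIRC3, MAOA and ACSL5, whose increase was larger in depleted cells.

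Fixed differences between the lines were large along some chromosomes and dropped out of the interaction. At 0 h the median difference between the lines was 0.56 on the log2 scale for 809 genes of chromosome 12, 0.45 for 817 genes of chromosome 3, -0.63 for 743 genes of chromosome 7 and -0.54 for 149 genes of chromosome 21, and nearly the same at 16 h (0.54, 0.40, -0.64 and -0.51). The median interaction of the same chromosomes was -0.04, -0.03, -0.02 and -0.03, and over all 23 chromosomes with at least 50 tested genes it lay between -0.05 and 0.01. Whether hairpin, clone or selection gave the lines their differences at 0 h cannot be told apart, and it was not tested whether they alter the response.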

How the data were processed

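The mRNA-seq libraries of 4 groups (control and mutp53-depleted SW480 cells at 0 h and 16 h of TNF-α, 2 biological replicates each) were analysed, and the ChIP-seq and GRO-seq samples were not used here. Per the methods and the submitters' processing notes, single-end reads of strand-specific poly(A) libraries were mapped with STAR, counted on RefSeq exons with HOMER and compared with edgeR. The signal values deposited by the authors are reads on exons scaled by 1 factor per library to a common total. The file header and coordinates give hg19, whereas the methods name hg38. Dividing by the value of 1 read gave whole reads (within 0.1) for 100% of values. Log2 fold changes, p-values and adjusted p-values deposited by the authors for 4 comparisons were not used, and there was no column of per-sample values outside the 8 libraries.

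Values were compared as log2(value + 1) with limma 3.58.1 (R 4.3.3, lmFit, contrasts.fit, eBayes with trend), 4 group means over 8 libraries, for genes with a mean of at least 2.5, with Benjamini-Hochberg adjustment over 14800 genes and calls at an adjusted p under 0.05. Errors are standard errors unless named as SD. On the recovered reads edgeR 4.0.16 (quasi-likelihood, TMM) called 328 lower and 128 higher, and DESeq2 1.42.0 was also run. Other alternatives were another scaling, filters, pseudocounts, the replicate block and leaving out each library. On simulated data with 14679 genes, limma called 95 of 100 interactions with a log2 of 1.5. It called 96 of 100 with a log2 of 2. Both sizes were in the same simulated data, which had 5 false calls in all. The changed genes were drawn from those with a mean of at least 20, and no other difference between the groups was simulated. These shares were not split by the level at 0 h, so they give no power for genes near 0 there. Standard errors of such genes were, for example, 0.34 for IL32 and 0.87 for CCL7, against 0.15 for NFKBIA. CPA4, also near 0 at 0 h, had an interaction of -1.85 ± 0.81 and was not called. Ratios against a group with 3 reads or fewer in each library were bounds against 3 reads.

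The genes and the 39 gene lists (1246 genes, 1021 tested) were chosen with earlier results of these data known, so lists are described by counts and medians without a test. Named genes were the 5 largest interactions of each form with a mean of at least 20, up to 4 called genes of each list by p, or its smallest p, and genes whose mRNA the paper follows, and some genes the rule names are not reported here. NT5E, GPRC5A, ACSL5 and MAOA fall outside this rule, as do members listed only to complete a count. Promoters (250 bases before to 50 after the start) came from RefSeq on GRCh38.p14 and matched 11528 tested genes (77.9%) by gene ID. Tables and plots used Python 3.11.15, pandas 2.3.3 and matplotlib 3.10.9.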

Additional observations from a re-analysis of the deposited data

Results flagged for a closer look

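The genes named with a call in the interaction are listed for a closer look because the difference between the responses of the lines was itself tested and passed (limma adjusted p under 0.05, n = 2 libraries per group). An outlying library within a group was not looked for, since that search needs at least 4 libraries per group, and the counts without each library in turn are given below. On the log2 scale, the weaker inductions included -5.71 for LTB, -5.22 for UBD, -4.85 for HSPB8, -3.85 for CCL7, -3.71 for CTSS, -3.24 for APOL3, -3.20 for CX3CL1, -2.84 for BIRC3, -2.77 for TNF, -2.26 for IL32, -2.24 for CCL2, -2.05 for PLAT, -2.05 for CGN, -1.98 for CSF1, -1.98 for TNFRSF6B and -1.85 for SAA1. Others were -1.74 for KRT7, -1.51 for WNT10A, -1.43 for NFKBIA, -1.31 for APOL6, -1.23 for CD74, -1.11 for PERP, -1.05 for IKBKE, -0.94 for CD55, -0.93 for NFKB2, -0.88 for LOXL2, -0.84 for IRF2, -0.83 for CLDN1, -0.80 for BID, -0.80 for ICAM1, -0.77 for PARP14, -0.76 for ITGAV, -0.70 for STAT6, -0.70 for SOD2, -0.65 for PSMB10 and -0.65 for SMAD3. Of genes named to complete a count or a pair, the values were -2.05 for MAOA, -2.01 for BCL3, -1.95 for TNFAIP3, -1.93 for ISG20, -1.62 for SAA2, -1.43 for UBE2L6, -1.43 for RTEL1-TNFRSF6B, -1.18 for IFIH1, -1.16 for ACSL5, -1.09 for GBP3, -0.89 for NFKBIE, -0.89 for RELB, -0.83 for REL, -0.80 for CYLD, -0.66 for BIRC2, -0.64 for TNIP1, -0.61 for NT5E, -0.58 for PSMC6, -0.53 for IRF1, -0.50 for GJB2, -0.47 for GPRC5A, -0.46 for IRF3 and -0.46 for NFKB1.

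Among genes whose rise was reversed to a fall, the values were -2.77 for SLC2A12, -2.75 for TNFSF10, -2.06 for ELF3, -1.37 for CASP9, -1.33 for TGFB2, -0.94 for PHLDA3 and -0.53 for BMP4. Genes that fell in depleted cells without passing the test in control cells had -3.17 for MMP11, -2.81 for PDGFRB, -1.72 for TGFBR3, -1.52 for DHRS3, -0.85 for ERBB3, -0.58 for STAT2, -0.55 for VDR and -0.50 for KLF5. A stronger fall was measured with -2.24 for TSPAN2, -2.15 for SESN3, -1.61 for APCDD1, -1.21 for NOTUM, -1.13 for EDAR, -0.87 for JUP, -0.79 for HNF4A and -0.71 for RARG.

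Positive values were found for the weaker falls, 4.31 for EDN3, 2.19 for CTGF, 2.12 for COL6A3, 1.57 for SLC7A7, 1.12 for CHI3L1, 1.00 for GADD45A, 0.93 for SLC3A2, 0.85 for HES1, 0.84 for EGR1, 0.63 for SLC2A3, 0.57 for NOTCH1, 0.56 for DHCR7 and 0.55 for CYP51A1. Genes turned from a fall to a rise had 2.01 for UCN2, 1.34 for NPAS2, 0.88 for TNFRSF21, 0.87 for SFN and 0.75 for OSBPL5. Those that rose in depleted cells alone by the test had 5.19 for SERPINB2, 3.58 for KRT75, 1.71 for EHF, 1.58 for INS-IGF2, 1.55 for IGF2, 0.69 for DUSP2 and 0.63 for LAMA3, and the stronger inductions were 1.80 for KRTAP2-3, 0.79 for CD82, 0.65 for PHLDA2, 0.61 for MT2A, 0.53 for PHLDA1 and 0.42 for CD44. Of all 14800 genes, 127 were called lower and 27 higher in the main analysis and in 15 alternatives, counting every alternative but the stricter filter. Of the genes named here, those called in fewer than 9 of the alternatives were PSMC6 (4 of 16), GJB2 and NFKB1 (5 of 16), TNF (6 of 16), CD74, IRF1, HNF4A and NOTUM (7 of 16), KRT75 (7 of 15), and CD44, DHCR7, DUSP2, ICAM1, NT5E, PSMB10, STAT2 and TSPAN2 (8 of 16).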

How the results depend on the processing

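With 2 libraries per group, all p-values rest on a spread pooled over genes and groups. Against 327 lower and 97 higher calls, median-ratio scaling gave 291 and 110, pseudocounts of 0.1 and 5 gave 260 and 72, and 366 and 135, a mean of at least 10 gave 336 and 100, no filter gave 226 and 66, edgeR gave 328 and 128 and DESeq2 gave 217 and 76. No gene was called in the opposite direction under any of these, and of the 327 lower calls 306 were shared with edgeR and 214 with DESeq2. Leaving out 1 library at a time gave 166 to 287 lower and 40 to 134 higher, and 111 to 162 weaker inductions, 8 to 20 reversed to a fall, 28 to 82 falls after depletion, 13 to 35 stronger falls, 20 to 72 weaker falls, 1 to 14 reversed to a rise, 12 to 36 rises after depletion and 5 to 12 stronger inductions. The lone library of such a group was assumed to vary like the others.

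Of the 8 forms of response, counts that moved by over 1.5 times were, under DESeq2, 6 reversed to a fall (22 in the main analysis), 47 falls after depletion (74), 16 stronger falls (33) and 4 reversed to a rise (9). With no filter they were 14 reversed to a fall, 48 falls after depletion, 18 stronger falls, 34 weaker falls (54) and 6 stronger inductions (10). Median-ratio scaling gave 13 reversed to a fall, and edgeR 17 stronger inductions. MMP9, not called, turned to 0.16 under DESeq2. The cause of these changes was not tested.

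The letters A and B were not taken to pair libraries, since the deviations of libraries with the same letter correlated between -0.04 and 0.12. A fit with the replicate block gave 406 lower and 153 higher calls, which included all 327 and 97, with 87 weaker falls, 38 rises after depletion and 17 stronger inductions.

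In normalized reads, a scale added after the data were seen, the sign held for 305 of 327 lower, 90 of 97 higher and 186 of 198 weaker inductions. Depth limits genes near 0 at 0 h, whose values follow the added constant.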

Other observations

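Some lists not described above also held called genes. Of 23 complement and coagulation genes, 4 were lower (17.4%) and 2 higher (8.7%). CD55, which protects cells from complement, rose in control cells (0.96) and changed by 0.02 in depleted cells (-0.94 ± 0.18, limma adjusted p = 0.0057). Its mean was higher in depleted cells at both times, 285 against 105 normalized reads at 0 h and 288.5 against 205 at 16 h. Of 16 intestinal differentiation genes, KLF5 and HNF4A were lower (12.5%). KLF5, a factor of crypt cells, fell in depleted cells (-0.42) and changed by 0.08 in control cells (-0.50 ± 0.11, limma adjusted p = 0.011). HNF4A, a factor of mature enterocytes, fell in both lines and further after depletion on the log2 scale (-0.89 and -1.68, -0.79 ± 0.20, limma adjusted p = 0.036, called in 7 of 16 alternatives). Its change in normalized reads was -251 in control cells and -91 in depleted cells. Of 20 MAPK feedback genes, PHLDA1 and DUSP2 were higher (10.0%). PHLDA1 rose in both lines (0.34 and 0.87, 0.53 ± 0.09, limma adjusted p = 0.0035), and DUSP2, a phosphatase of MAP kinases, rose in depleted cells (0.51, 0.69 ± 0.16, limma adjusted p = 0.024, called in 8 of 16 alternatives).

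KRT7, a keratin, rose 7.45-fold in control cells and 2.13-fold in depleted cells (-1.74 ± 0.37, limma adjusted p = 0.012). LOXL2, a collagen crosslinking enzyme, rose in control cells (0.63) and changed by -0.24 in depleted cells (-0.88 ± 0.13, limma adjusted p = 0.00074). MMP11, stromelysin, had 18.1 and 15.1 normalized reads in depleted cells at 0 h and was at 0 in both of their libraries at 16 h, against 34.8 and 24.2 and 18.4 and 11.4 in control cells (-3.17 ± 0.66, limma adjusted p = 0.011). SLC2A3, a glucose transporter, fell in both lines, less after depletion on the log2 scale (-1.37 and -0.74, 0.63 ± 0.11, limma adjusted p = 0.0035). Its change in normalized reads was -8519 in control cells and -8934 in depleted cells. CHI3L1, a secreted chitinase-like protein, fell in control cells (-1.52) and changed by -0.40 in depleted cells (1.12 ± 0.26, limma adjusted p = 0.02, called in 9 of 16 alternatives).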
